A study of Mus musculus with 2 samples.

Results

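The nuclear receptors of mouse liver are described here across 4 pools of liver RNA. The group was set by name as 31 receptor genes, and its members on the array are the probes whose RefSeq accession belongs to one of these genes. This gave 48 probes for 31 genes, out of 26762 named probes for 20284 genes. The list was set by gene name, not by a threshold on a value, though with earlier results of these data known.

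The tissue was liver of CREBH KO mice, which lack CREBH on a C57B6J background, and of wild-type (WT) C57B6J mice. Creb3l3 encodes CREBH, a transcription factor anchored in the endoplasmic reticulum of hepatocytes, which is cleaved and sent to the nucleus when food is withdrawn. The 4 groups were KO mice fasted for 24 h, WT mice fasted for 24 h, KO mice with free access to food, and WT mice with free access to food. Each group was 1 pool of total liver RNA, KO labelled with Cy5 and WT with Cy3, and the 2 pools of a feeding state shared 1 two-colour Agilent array. The number, sex and age of the mice in a pool, and the way the KO allele was made, are not given in the sources used here. No dye swap and no replicate pool was included, so nothing below has a test. Differences are described by size, and at least 2-fold (1 on the log2 scale) was the rule of size.

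Nuclear receptors are transcription factors that bind DNA through zinc fingers and, in most cases, a small fat-soluble ligand through a separate domain. Many of those in liver, among them the PPARs, LXRs, PXR, CAR and the thyroid, vitamin D and retinoic acid receptors, bind DNA as pairs with an RXR. In fasting, free fatty acids reach the liver and PPAR-alpha switches on fatty acid oxidation and ketone body production, and CREBH is known to act beside PPAR-alpha on genes such as Fgf21. Orphan receptors such as HNF4-alpha hold hepatocyte identity and have no ligand that switches them on in the usual way.

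All signals below are normalized log2 intensities, and all differences are log2 ratios unless a fold is named. A level of a probe has no meaning against the level of another probe, so levels are compared between pools only. In bulk tissue, fewer cells of a type and less RNA per cell cannot be told apart. The targeted gene Creb3l3 had signals of 12.95 in KO and 15.03 in WT liver when fasted, and 13.12 in KO and 14.00 in WT liver when fed. KO over WT of Creb3l3 was thus -2.07 when fasted and -0.88 when fed, though the probe was still bright in KO liver, and whether it lies in the deleted part is not given. When the median of all gene spots was set to 0 on each array (all-spot centring), the fed Creb3l3 ratio turned to 0.31. The hepatocyte marker Alb was bright in every pool, at 17.47 in KO and 17.29 in WT liver when fasted and 17.15 in KO and 17.52 in WT liver when fed. The defining markers of Kupffer cells (Clec4f), sinusoidal endothelium (Stab2), stellate cells (Reln), bile duct cells (Krt19) and T cells (Cd3e) were above background in all 4 pools, and those of adipocytes (Adipoq) and skeletal muscle (Acta1) in none.

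Most of the receptors were detected. In fasted KO liver 27 of 31 members had a probe well above background, in fasted WT liver 28, in fed KO liver 29 and in fed WT liver 27. Hnf4g, an intestine-rich relative of HNF4-alpha, and Vdr, the vitamin D receptor, were not well above background in any pool. Nr4a2 and Nr6a1 were above background in some pools only, and the remaining 27 members were measured in all 4. The lowest signals of probes well above background were 6.04, 6.07, 6.08 and 6.11 in the fasted KO, fasted WT, fed KO and fed WT pools. Among probes printed 10 times, the median SD of a ratio over spots was 0.08 to 0.10, which measures the array and not the mice.

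**Figure D1:**
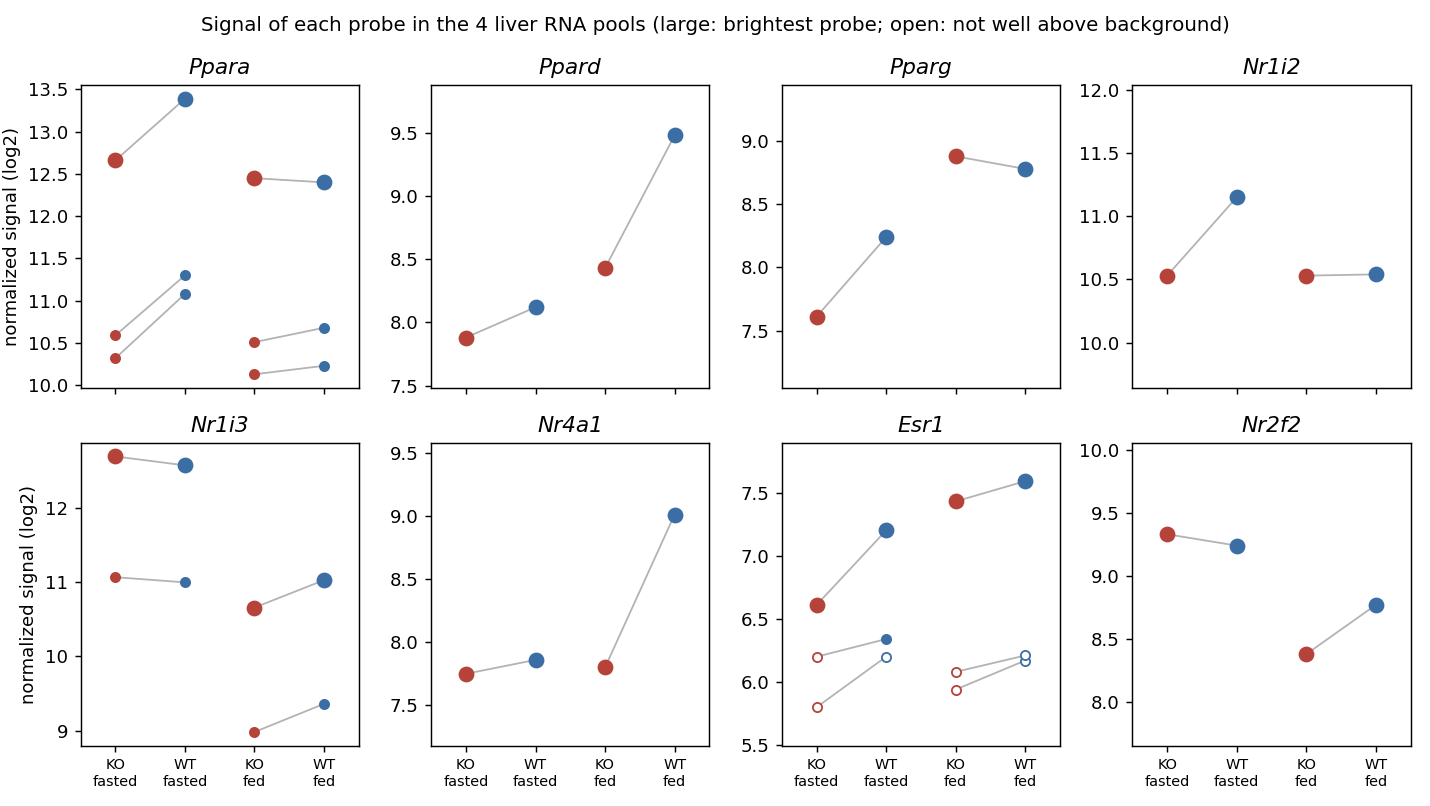
Normalized log2 signal of each probe of 8 nuclear receptor genes in the 4 pools of liver RNA, 1 panel per gene, with KO in red, WT in blue, large points for the brightest probe, small points for further probes, open points for signals not well above background and grey lines joining the 2 pools of an array. The fasted WT pool is high for Ppara (13.39) and Nr1i2 (11.15), the fed WT pool for Ppard (9.48) and Nr4a1 (9.01), and both fasted pools for Nr1i3 (12.70 in KO, 12.58 in WT).

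Most receptors had like signals in KO and WT liver of the same feeding state. After 24 h of fasting, 0 of 27 measured members differed 2-fold between KO and WT liver, where 0.791% of 12262 genes did, 0.359% as higher and 0.432% as lower. At the lower rule of 1.5-fold (0.58 on the log2 scale), 0 members were higher and 3 lower in fasted KO liver, namely Ppara, Pparg and Nr1i2. Over all genes 2.73% passed that rule, 1.26% as higher and 1.48% as lower. The members' median ratio was -0.14, against 0.01 over all genes, and 19 of 27 lay below 0. Under all-spot centring the median of all genes moved by 0.57 and that of the members was 0.52, so these signs rest on the scaling too.

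In the fed state, 0 of 27 measured members were at least 2-fold higher and 2 (Nr4a1 and Ppard) at least 2-fold lower in KO than in WT liver. Nr4a1 and Ppard have 1 probe each, printed once per array, so every ratio of these genes rests on 1 spot per array. Over all genes 0.554% of 11377 passed 2-fold, 0.158% as higher and 0.396% as lower. No further member passed 1.5-fold, which 2.73% of all genes did, 1.33% as higher and 1.41% as lower. The members' median ratio was -0.08, against 0.01 over all genes, and 18 of 27 lay below 0. Without its sign, the median ratio was 0.16 for members and 0.12 for all genes. This split rests on the scaling. Under all-spot centring 6 members were at least 2-fold higher and 0 lower, as 3102 genes were higher and 9 lower, and the median of all genes moved by 0.78.

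**Figure D2:**
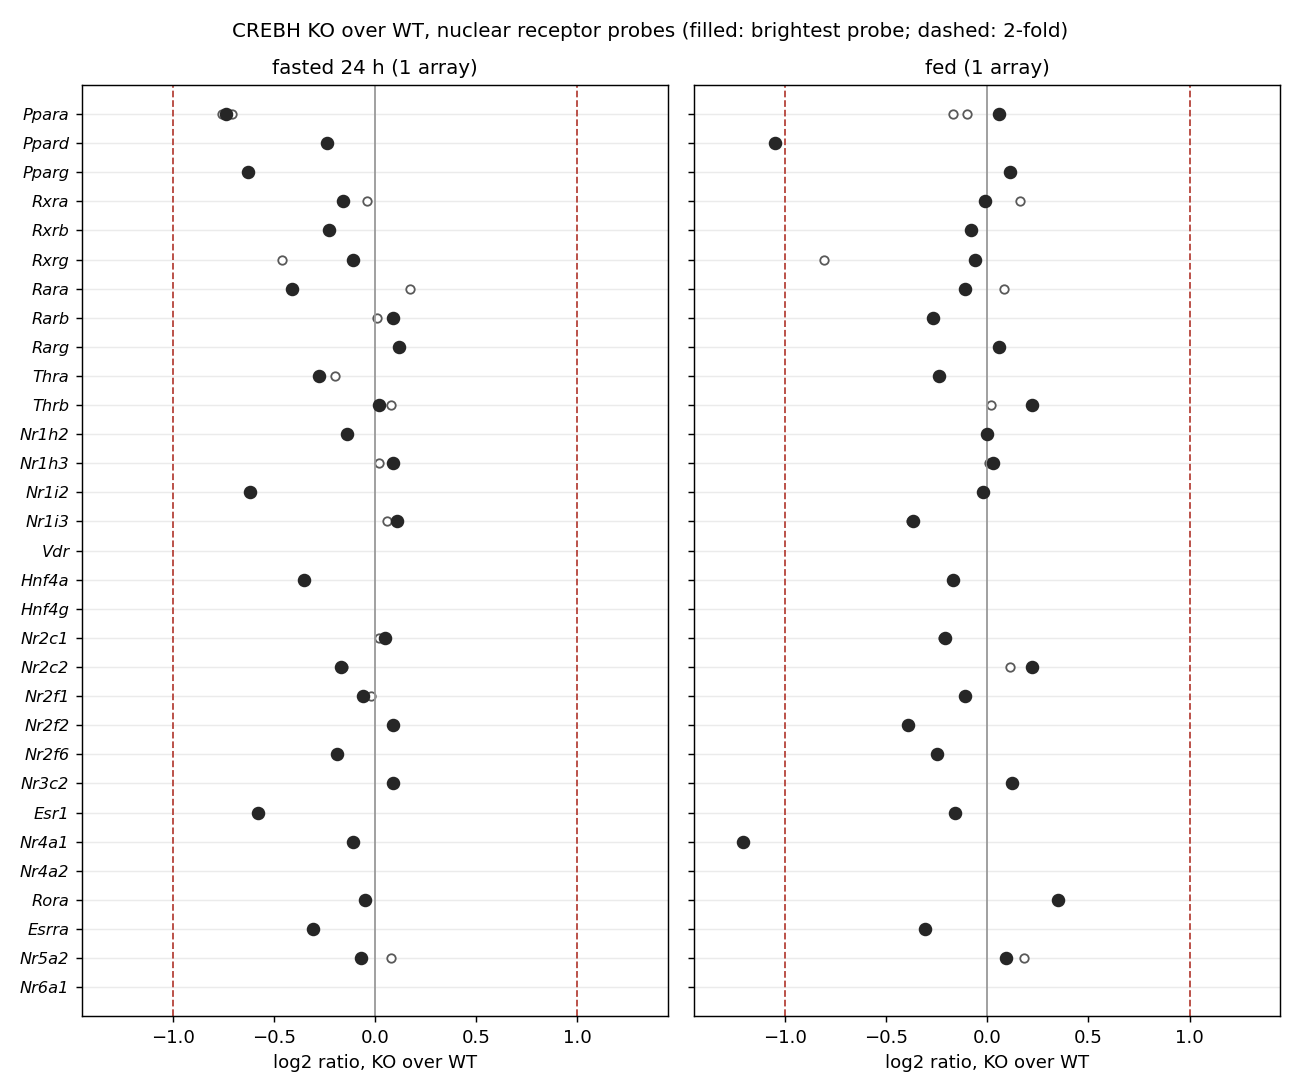
KO over WT log2 ratios of nuclear receptor probes in the fasted and in the fed pools, with genes down the page, filled points for the brightest probe of a gene, open points for further probes and dashed lines at 2-fold. In the fasted panel every measured probe lies within the lines, with Ppara at -0.74, and in the fed panel Ppard (-1.05) and Nr4a1 (-1.21) lie beyond them.

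Fasting ratios compare the 2 arrays, so feeding state and array cannot be told apart in them, whereas a genotype ratio lies within an array. In KO liver 1 of 27 members was at least 2-fold higher after fasting (Nr1i3) and 1 at least 2-fold lower (Pparg), and 4.68% of 11785 genes passed 2-fold, 2.59% as higher and 2.10% as lower. In WT liver 1 member was higher (Nr1i3) and 2 were lower (Ppard and Nr4a1), and 4.28% of 11441 genes passed 2-fold, 2.36% as higher and 1.92% as lower. At 1.5-fold, 2 members were higher (Nr1i3 and Nr2f2) and 3 lower (Pparg, Esr1 and Rara) in KO liver, against 7.16% and 6.47% of all genes. In WT liver 3 were higher by that rule (Nr1i3, Ppara and Nr1i2) and 2 lower (Ppard and Nr4a1), against 6.14% and 5.66% of all genes. Counts this small lie near the background shares and say nothing particular of the receptors. The members' median was -0.05 in KO and -0.03 in WT liver, with 0.01 over all genes in each. Without sign, the median ratio of members was 0.34 in KO and 0.30 in WT liver, against 0.22 and 0.20 over all genes.

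**Figure D3:**
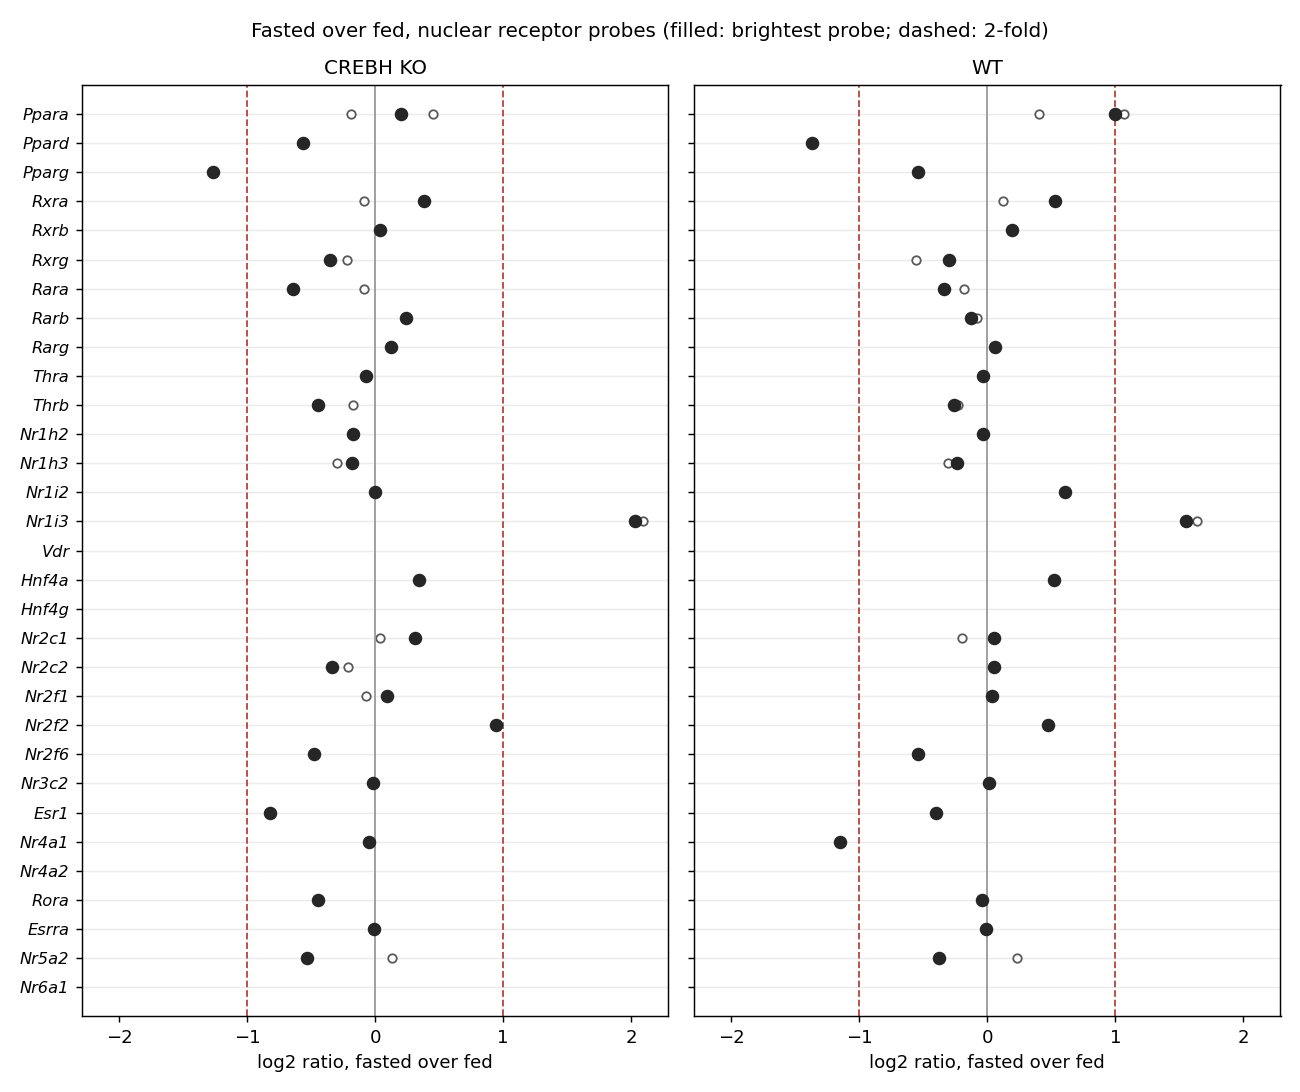
Fasted over fed log2 ratios of nuclear receptor probes in CREBH KO and in WT liver, with genes down the page, filled points for the brightest probe of a gene, open points for further probes and dashed lines at 2-fold. Nr1i3 lies beyond the line in both panels (2.03 in KO, 1.55 in WT), Pparg in the KO panel (-1.27), and Ppard (-1.37) and Nr4a1 (-1.15) in the WT panel.

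The difference between the fasted and the fed KO over WT ratio, in which a constant dye effect of a probe cancels, was past 2-fold for 1 of 27 members, Nr4a1, as higher, against 1.37% of 11290 genes, 0.771% as higher and 0.602% as lower. At 1.5-fold, 2 members had a higher ratio in the fasted state (Nr4a1 and Ppard) and 3 a lower one (Ppara, Pparg and Nr1i2), against 4.23% of all genes, 2.25% as higher and 1.98% as lower. These 5 receptors are described with their signals first among their classes.

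Ppara encodes PPAR-alpha, the fatty acid receptor that drives fatty acid oxidation in the fasted liver. Its promoter is shown because Ppara was the PPAR whose signal stood highest in fasted WT liver and not in fasted KO liver. The window holds the 250 bases before the RefSeq start (RefSeq, GRCm38.p6, chr15:85735526-85735775, plus strand, 5' to 3'), with CCACG and TGACG in capitals, both of them short motifs found in elements that CREB-like and ATF6-like factors bind.
Ppara: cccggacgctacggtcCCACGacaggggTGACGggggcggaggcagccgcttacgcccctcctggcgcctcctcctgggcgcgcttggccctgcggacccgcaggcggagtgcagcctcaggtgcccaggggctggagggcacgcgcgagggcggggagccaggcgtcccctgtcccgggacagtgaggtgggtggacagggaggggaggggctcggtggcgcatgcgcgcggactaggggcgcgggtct
The CCACG lies 234 to 230 bases and the TGACG 222 to 218 bases before the start. The brightest Ppara probe had signals of 12.66 in fasted KO and 13.39 in fasted WT liver, and 12.45 in fed KO and 12.40 in fed WT liver. The fasted WT pool stood above the other 3, which lay together. KO over WT was -0.74 in the fasted state (1.67-fold lower in KO) and 0.06 in the fed state. Fasting gave 0.20 in KO and 1.0 in WT liver, the second just short of 2-fold before rounding. The WT value passed 2-fold with an offset of 16, under all-spot centring, with quantile normalization over all channels and without normalization between arrays, and was 0.82 as the mean over the 3 probes.

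The other 2 Ppara probes gave -0.71 and -0.76 for KO over WT in the fasted state, so all 3 probes were lower in fasted KO liver by a like amount. Their fasting ratios differed more, from -0.19 to 0.45 in KO and from 0.40 to 1.07 in WT liver. Over 7 settings the fasted KO over WT ratio of Ppara, taken relative to the median of all genes under each, was between -0.75 and -0.40. Its raw value was 0.16 under all-spot centring. The scanner software's own ratio was -0.74 ± 0.22 (its error for 1 spot). The difference of the fasted and fed ratios of Ppara was -0.80, and lay between -1.01 and -0.67 over those settings.

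Ppard encodes PPAR-delta, a widely expressed fatty acid receptor that shares many of its DNA sites with PPAR-alpha. Its promoter is shown beside that of Ppara since Ppard went the opposite way between feeding states (RefSeq, GRCm38.p6, chr17:28232504-28232753, plus strand). It holds 1 CCACG, in capitals, 214 to 210 bases before the start.
Ppard: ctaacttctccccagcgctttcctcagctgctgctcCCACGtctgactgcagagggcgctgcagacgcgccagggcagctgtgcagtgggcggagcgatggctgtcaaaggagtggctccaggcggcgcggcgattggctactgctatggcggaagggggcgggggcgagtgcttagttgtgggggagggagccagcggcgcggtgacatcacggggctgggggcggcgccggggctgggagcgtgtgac
Ppard signals were 7.88 in fasted KO and 8.12 in fasted WT liver, and 8.43 in fed KO and 9.48 in fed WT liver. The fed WT pool was the high one, and the other 3 lay below it. KO over WT was -0.24 when fasted and -1.05 when fed (2.07-fold lower in KO). Fasting gave -0.56 in KO and -1.37 in WT liver (2.58-fold lower). Without normalization between arrays the fasting ratio of Ppard in WT liver was -0.86, short of 2-fold. Both large Ppard ratios use the fed WT channel, so they share that value. Under all-spot centring the fed ratio of Ppard was -0.21, and relative to the median of all genes it was between -1.18 and -0.99 over 6 settings.

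Pparg encodes PPAR-gamma, the receptor of fat storage and adipocyte formation, which is low in healthy liver and raised in fatty liver. Its probe was printed 10 times on each array. Mean signals were 7.61 ± 0.07 in fasted KO and 8.24 ± 0.12 in fasted WT liver, and 8.88 ± 0.08 in fed KO and 8.78 ± 0.11 in fed WT liver (SD over 10 spots of 1 pool). The lowest signal over the spots was in fasted KO liver, whose highest spot (7.71) lay below the lowest spot of fasted WT liver (8.11). KO over WT was -0.63 ± 0.11 when fasted and 0.11 ± 0.08 when fed. Fasting gave -1.27 ± 0.10 in KO (2.41-fold lower) and -0.54 ± 0.07 in WT liver. The difference of the 2 genotype ratios of Pparg was -0.74 ± 0.09, with spots from -0.84 to -0.62, and it lay between -1.03 and -0.74 over 6 settings. Under all-spot centring KO over WT of Pparg was -0.10 when fasted and 0.92 when fed. Without normalization between arrays its fasting ratio in KO liver was -0.77, short of 2-fold. Of 7 adipocyte markers 3 were measured for KO over WT in the fasted state and 2 in the fed state, with medians of -0.11 and -0.32. Adipoq was not above background in any pool. Cidec, a lipid droplet protein on that list, had signals of 6.80 in fasted KO and 9.37 in fasted WT liver, and 6.21 in fed KO and 6.88 in fed WT liver. KO over WT of Cidec was thus -2.56 when fasted and -0.67 when fed. Pnpla2, a triglyceride lipase on the list, gave 0.14 and 0.03. The part of these genes or cells in the Pparg ratios was not tested.

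The RXRs are the partners that most of these receptors need on DNA. Rxra, the main RXR of hepatocytes, had signals of 8.0 in fasted KO and 8.16 in fasted WT liver, and 7.62 in fed KO and 7.63 in fed WT liver. Rxrb had 11.61 in fasted KO and 11.83 in fasted WT liver, and 11.56 in fed KO and 11.64 in fed WT liver. Rxrg had 9.17 in fasted KO and 9.28 in fasted WT liver, and 9.52 in fed KO and 9.58 in fed WT liver. No RXR reached 1.5-fold in any comparison on these probes. A second Rxrg probe gave -0.81 for KO over WT in the fed state where the first gave -0.06, a spread of 0.75 and the widest between probes of a member in that comparison. Fasting ratios of Rxra were 0.38 in KO and 0.53 in WT liver on the chosen probe, and -0.09 and 0.12 on the other.

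PXR (Nr1i2) and CAR (Nr1i3) sense drugs, bile acids and other foreign or toxic compounds and switch on the enzymes and transporters that clear them. CAR was the receptor with the largest fasting ratio in both genotypes. Its promoter (RefSeq, GRCm38.p6, chr1:171213720-171213969, plus strand) holds an E-box, CACGTG, in capitals, 244 to 239 bases before the start, and that of PXR (chr16:38294825-38295074, minus strand) holds none of the motifs searched.
Nr1i3: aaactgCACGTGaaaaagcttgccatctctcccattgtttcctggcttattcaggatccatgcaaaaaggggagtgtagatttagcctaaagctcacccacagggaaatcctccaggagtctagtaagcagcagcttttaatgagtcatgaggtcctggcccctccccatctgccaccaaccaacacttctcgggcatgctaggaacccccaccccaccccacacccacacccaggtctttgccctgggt
Nr1i2: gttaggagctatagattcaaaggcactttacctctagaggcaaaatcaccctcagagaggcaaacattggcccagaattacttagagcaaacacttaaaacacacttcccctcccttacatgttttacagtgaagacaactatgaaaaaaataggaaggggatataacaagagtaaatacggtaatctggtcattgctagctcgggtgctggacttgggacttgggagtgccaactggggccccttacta
Nr1i3 signals were 12.70 in fasted KO and 12.58 in fasted WT liver, and 10.66 in fed KO and 11.03 in fed WT liver. Both fasted pools stood above both fed pools. Fasting gave 2.03 in KO (4.09-fold higher) and 1.55 in WT liver (2.93-fold higher), and the second probe gave 2.09 and 1.64. KO over WT was 0.11 when fasted and -0.37 when fed, with 0.06 and -0.38 on the second probe. Over 8 settings the fasting ratio of Nr1i3 was between 1.96 and 2.62 in KO and between 1.51 and 2.14 in WT liver. The difference of its genotype ratios was 0.48, short of 1.5-fold.

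Nr1i2 signals were 10.53 in fasted KO and 11.15 in fasted WT liver, and 10.53 in fed KO and 10.54 in fed WT liver. As with Ppara, the fasted WT pool was high and the other 3 lay together. KO over WT of Nr1i2 was -0.62 when fasted (1.54-fold lower in KO) and -0.02 when fed, and fasting gave 0.00 in KO and 0.61 in WT liver. Relative to the median of all genes the fasted ratio was between -0.64 and -0.43 over 6 settings, and its raw value was 0.14 under all-spot centring. The ratios of Ppara and Nr1i2 in fasted liver and their fasting ratios in WT liver share the fasted WT channel.

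The LXRs sense oxidized cholesterol and raise cholesterol export and fat synthesis. Nr1h3, the LXR-alpha gene, had signals of 12.15 in fasted KO and 12.07 in fasted WT liver, and 12.33 in fed KO and 12.30 in fed WT liver. Its second probe was 11.95, 11.94, 12.26 and 12.25 in the same order. Nr1h2, the LXR-beta gene, had 11.17 in fasted KO and 11.31 in fasted WT liver, and 11.34 in fed KO and in fed WT liver. Over both LXR genes, fasting ratios were no larger than 0.31 and genotype ratios no larger than 0.14 in size.

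Among retinoic acid and thyroid hormone receptors no member reached 2-fold in any comparison. Rara, the main retinoic acid receptor, had 9.96 in fasted KO and 10.37 in fasted WT liver, and 10.60 in fed KO and 10.72 in fed WT liver, with fasting ratios of -0.64 in KO (1.56-fold lower) and -0.34 in WT liver. Its other probe gave -0.09 and -0.18, so the size of the Rara ratio depends on the probe. Rarb had 7.42 in fasted KO and 7.33 in fasted WT liver, and 7.18 in fed KO and 7.45 in fed WT liver. Rarg had 7.95 in fasted KO and 7.83 in fasted WT liver, and 7.83 in fed KO and 7.77 in fed WT liver. Both of these are less abundant forms of the retinoic acid receptor in hepatocytes. Thra had 8.98 in fasted KO and 9.27 in fasted WT liver, and 9.06 in fed KO and 9.30 in fed WT liver. Thrb, the main thyroid hormone receptor of hepatocytes, had 8.14 in fasted KO and 8.12 in fasted WT liver, and 8.59 in fed KO and 8.37 in fed WT liver. Fasting ratios of Thrb were -0.45 in KO and -0.26 in WT liver, and those of Thra -0.07 and -0.03.

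Hnf4a, which holds the hepatocyte programme, had 14.68 in fasted KO and 15.03 in fasted WT liver, and 14.34 in fed KO and 14.52 in fed WT liver. Both fasted pools of Hnf4a lay above both fed pools, by 0.34 in KO and 0.52 in WT liver, and both KO pools lay below the WT pool of the same state, with ratios of -0.35 when fasted and -0.17 when fed. The signs of these genotype ratios rest on the scaling. Centred on spots well above background, KO over WT of Hnf4a was 0.18 when fasted and 0.37 when fed. Under all-spot centring it was 0.67 when fasted and 1.08 when fed, which put Hnf4a among the 6 members 2-fold higher in fed KO liver.

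The NR2 orphans include COUP-TF and TR2/TR4 receptors, which often repress at sites that other receptors use. Nr2f2 (COUP-TFII) had 9.33 in fasted KO and 9.24 in fasted WT liver, and 8.38 in fed KO and 8.77 in fed WT liver. Fasting ratios of Nr2f2 were 0.94 in KO (1.92-fold higher) and 0.47 in WT liver, and with an offset of 16 in place of 50 the KO value passed 2-fold. Endothelial markers were mostly higher after fasting too, with 15 of 18 above 0 in KO liver (median 0.43) and 16 of 18 in WT liver (median 0.23). They were not alone in this. Kupffer cell and macrophage medians were 0.53 in KO and 0.10 in WT liver, hepatocyte medians 0.30 and 0.14, and stellate cell medians -0.16 and -0.32. The part of these cells in the Nr2f2 ratios was not tested. Nr2f6, a related repressor, had 12.49 in fasted KO and 12.68 in fasted WT liver, and 12.97 in fed KO and 13.22 in fed WT liver. Nr2f6 thus went the other way with fasting, by -0.48 in KO and -0.54 in WT liver. Nr2f1 (COUP-TFI) was dim, at 6.86 in fasted KO and 6.92 in fasted WT liver and 6.78 in fed KO and 6.88 in fed WT liver. Nr2c1 had 8.55 in fasted KO and 8.50 in fasted WT liver, and 8.24 in fed KO and 8.45 in fed WT liver. Nr2c2 had 7.70 in fasted KO and 7.87 in fasted WT liver, and 8.04 in fed KO and 7.81 in fed WT liver. No NR2 orphan other than Nr2f2 reached 1.5-fold in any comparison.

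Esr1, the oestrogen receptor, and Nr3c2, the mineralocorticoid receptor, stood for the steroid receptors. The brightest Esr1 probe, printed 10 times, averaged 6.61 ± 0.12 in fasted KO and 7.20 ± 0.14 in fasted WT liver. In fed liver it averaged 7.43 ± 0.10 in KO and 7.59 ± 0.13 in WT (SD over 10 spots). Its highest spot in fasted KO liver (6.80) lay below its lowest in fasted WT liver (7.02). KO over WT of Esr1 was -0.58 ± 0.06 when fasted and -0.16 ± 0.08 when fed, and fasting gave -0.82 ± 0.09 in KO and -0.40 ± 0.08 in WT liver. Esr1 was dim, and on the scanner software's processed signals the fasted ratio was -1.16, past 2-fold. Nr3c2 was close to background, at 6.37 in fasted KO and 6.28 in fasted WT liver and 6.39 in fed KO and 6.27 in fed WT liver, and its ratios were no larger than 0.12.

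Nr4a1 (Nur77) and Nr4a2 (Nurr1) are immediate-early genes that signals such as glucagon, through cAMP, induce within a short time, and they act without a known physiological ligand. The Nr4a1 promoter is shown since Nr4a1 had the largest genotype ratio of the members (RefSeq, GRCm38.p6, chr15:101266596-101266845, plus strand). It holds 4 copies of TGACG, all on the reverse strand and so read here as CGTCA, in capitals, the nearest 40 to 36 bases before the start.
Nr4a1: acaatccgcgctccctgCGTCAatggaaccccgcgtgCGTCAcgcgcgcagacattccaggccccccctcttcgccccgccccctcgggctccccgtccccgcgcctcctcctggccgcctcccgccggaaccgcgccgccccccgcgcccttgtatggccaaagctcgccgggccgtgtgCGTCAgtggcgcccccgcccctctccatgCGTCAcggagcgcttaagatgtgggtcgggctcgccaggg
Nr4a1 signals were 7.75 in fasted KO and 7.86 in fasted WT liver, and 7.80 in fed KO and 9.01 in fed WT liver. The fed WT pool was high and the other 3 lay within 0.11. KO over WT was -0.11 when fasted and -1.21 when fed (2.32-fold lower in KO). Fasting gave -0.05 in KO and -1.15 in WT liver (2.22-fold lower), and the difference of the genotype ratios was 1.1. Without normalization between arrays the fasting ratio of Nr4a1 in WT liver was -0.67, short of 2-fold. As for Ppard, the large ratios of Nr4a1 share the fed WT channel. The fed ratio was between -1.69 and -0.47 over 6 settings, with -0.47 under all-spot centring, and between -1.68 and -1.22 relative to the median of all genes. Nr4a2 was above background in fasted WT (6.38) and fed KO liver (6.42) and not in fasted KO (6.10) or fed WT liver (6.23). A second Nr4a2 probe had 6.09 in fasted KO, 6.25 in fasted WT, 6.19 in fed KO and 6.24 in fed WT liver. These signals were all close to background, so no direction is read from them.

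Kupffer cell and macrophage markers, like Nr4a1 and Ppard, were mostly lower in fed KO than in fed WT liver. Of 14 measured markers 9 lay above 0 for KO over WT in the fasted state, with a median of 0.13, and 13 lay below 0 in the fed state, with a median of -0.39. The difference of the genotype ratios was above 0 for 14 of 14, with a median of 0.44, and Marco was the marker past 2-fold there (1.19). The defining marker Clec4f gave 0.15 when fasted and -0.16 when fed. Medians of 17 hepatocyte markers were 0.04 when fasted and -0.12 when fed, and those of endothelial markers 0.03 and -0.12. Lymphocyte markers gave 0.11 and -0.24, neutrophil markers -0.01 and -0.21, bile duct cell markers 0.11 and -0.01, and stellate cell markers 0.14 and 0.08. For the difference of the genotype ratios, medians were 0.26 for neutrophil, 0.24 for bile duct cell and 0.04 for lymphocyte markers. They were 0.15 for endothelial, 0.1 for hepatocyte and 0.0 for stellate cell markers, and -0.89 for 2 adipocyte markers. Fed medians were thus below 0 for several cell types, with the Kupffer cell and macrophage median the lowest. All fed KO over WT ratios of these markers use the fed WT channel, as do those of Nr4a1 and Ppard. Under all-spot centring the median of all genes in the fed comparison was 0.78. The signs of the fed marker medians thus rest on the scaling too. The part of these cell types in the fed ratios of the receptors was not tested.

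Of the orphan receptors Rora, Esrra, Nr5a2 and Nr6a1, none reached 1.5-fold in a comparison where it was measured. Rora, which acts on clock and lipid genes, had 8.93 in fasted KO and 8.99 in fasted WT liver, and 9.38 in fed KO and 9.03 in fed WT liver. Fed KO liver had the highest Rora signal, 0.35 above fed WT liver. Esrra, a regulator of mitochondrial genes, had 10.64 in fasted KO and 10.96 in fasted WT liver, and 10.66 in fed KO and 10.97 in fed WT liver. Esrra was thus 0.31 lower in KO liver in both states, and its fasting ratio was -0.01 in both genotypes. KO was in Cy5 on both arrays, so genotype and a constant dye effect of the probe cannot be told apart here. Centred on spots well above background, KO over WT of Esrra was -0.06 when fasted and -0.01 when fed. Under all-spot centring it was 0.44 when fasted and 0.70 when fed. Nr5a2 (LRH-1), which acts on bile acid synthesis genes, had 10.44 in fasted KO and 10.50 in fasted WT liver, and 10.97 in fed KO and 10.88 in fed WT liver. Its fasting ratios were -0.53 and -0.38 in KO and WT liver, and a second, dimmer probe gave 0.13 and 0.23. Nr6a1 (GCNF), a germ cell repressor, was above background in fed KO liver only, at 6.56, against 6.37 in fed WT liver. Both signals were close to background, so no direction is read from them.

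**Figure D4:**
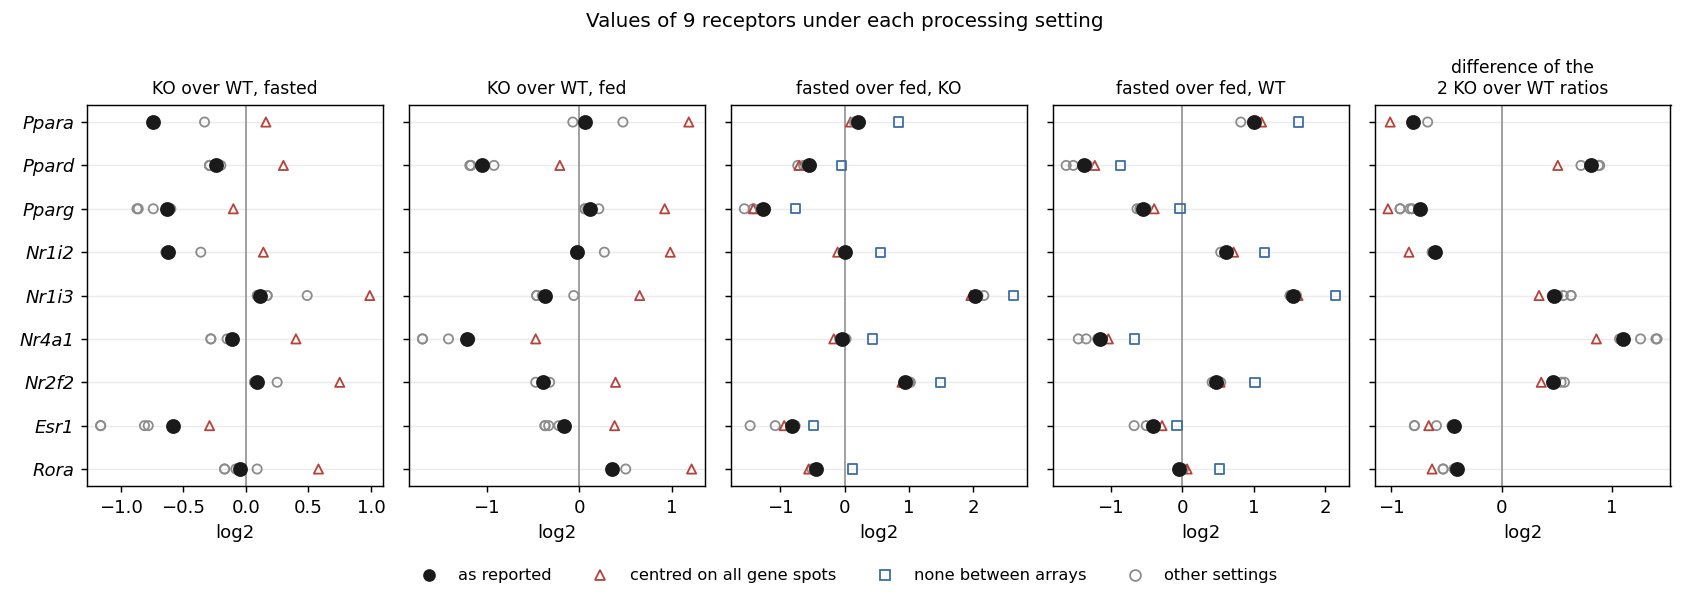
Log2 values of 9 nuclear receptors, down the page, in the 5 comparisons, 1 panel each, under each processing setting, with black points for the values as reported, red triangles for all-spot centring, blue squares for no normalization between arrays and grey circles for other settings. The triangles lie to the right of the other points in both KO over WT panels, and Ppara in the fasted state is at -0.74 as reported and at 0.16 under all-spot centring.

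Where a member had several probes, they went the same way for 11 of 13 members in the fasted KO over WT comparison and 7 of 10 in the fed one. The median spread between probes was 0.07 and 0.15. In fasted over fed it was 7 of 11 in KO and 9 of 11 in WT liver, with median spreads of 0.28 and 0.16. Smaller ratios than these spreads are within the disagreement between probes.

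Other nuclear receptors, 18 genes outside the member list, showed 0 genes past 2-fold among 12 measured in fasted KO over WT and 0 among 10 in the fed comparison. Their medians were -0.03 and 0.04. In fasted over fed 0 of 11 passed in KO and 0 of 10 in WT liver. Of coactivators and corepressors, 27 were measured in the fed comparison and 1 was 2-fold higher in KO liver, Lpin1, at 1.59. Over all genes 0.158% were 2-fold higher there. Lpin1, a phosphatidate phosphatase that also coactivates PPAR-alpha with PGC-1-alpha, had signals of 10.26 in fasted KO and 10.70 in fasted WT liver, and 10.19 in fed KO and 8.60 in fed WT liver. Fasting ratios of Lpin1 were 0.07 in KO and 2.10 in WT liver. With fasting 0 of 28 measured coregulators were 2-fold higher and 1 lower in KO liver, where 4.68% of all genes passed. In WT liver 2 of 27 were higher (Lpin1 and Trim24) and 1 lower, where 4.28% of all genes passed. The lower one in each was Crebbp, the acetyltransferase CBP, at -1.22 in KO and -1.0 in WT liver. Trim24, a coregulator of retinoic acid receptors, was at 1.07 in WT liver.

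PPAR-alpha targets were mostly higher after fasting: 22 of 27 measured in KO and 23 of 28 in WT liver were at least 2-fold higher and 0 lower in each, with medians of 1.59 and 1.64. Over all genes, 4.68% passed 2-fold with fasting in KO and 4.28% in WT liver, and 0.791% (fasted) and 0.554% (fed) for KO over WT. These shares stand beside the counts of this list and of those below. Cyp4a14, a fatty acid hydroxylase, gave 9.69 in KO and 4.55 in WT liver with fasting. KO over WT in the fasted state was past 2-fold for 2 targets as higher and 2 as lower out of 27, with a median of 0.27 and 21 above 0, beside a Ppara ratio of -0.74. Pdk4, which blocks pyruvate oxidation, was higher (1.56), and Fgf21, a fasting hormone, was lower (-2.36). The other of the 2 lower genes was Creb3l3, the targeted gene itself. Creb3l3 is on this list and in its counts and medians, and its KO over WT ratio says nothing of PPAR-alpha. In the fed state 1 target was higher (Angptl4, an inhibitor of lipoprotein lipase, 1.84) and 4 lower, among them Cyp4a14 (-3.77) and Cyp4a31 (-1.61), of 28 measured, with a median of -0.12.

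PXR and CAR targets showed 0 of 25 past 2-fold for KO over WT in the fed state, with a median of -0.03. In the fasted state 3 were higher and 3 lower, against 0.359% and 0.432% of 12262 genes. The median of the 25 was -0.25 and 19 lay below 0, beside a PXR ratio of -0.62 and a CAR ratio of 0.11. Under all-spot centring the median of all genes in that comparison was 0.57, so these signs rest on the scaling too. Sult1e1, which sulphates oestrogen, was higher in fasted KO liver (2.42), as was Aldh1a1, a retinal dehydrogenase (1.42), and Slco1a4, an organic anion carrier, was lower (-1.39). Fasting gave 5 higher and 5 lower of 25 in KO and 3 higher and 4 lower in WT liver, beside CAR ratios of 2.03 and 1.55. Cyp2c55 was lower (-2.69 in KO, -1.87 in WT), Gadd45b higher (2.27 and 1.28), and Por, the P450 reductase, higher in WT liver (1.62).

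Of 16 LXR targets, 0 were higher and 1 (Scd1, stearoyl-CoA desaturase, -1.92) lower in fasted KO than in WT liver, and 1 higher (Lpin1) and 1 lower (Cyp7a1, which starts bile acid synthesis, -1.08) in the fed state. With fasting 2 of 16 were higher and 3 lower in each genotype. Srebf1 (-3.06 in KO, -3.43 in WT) and Fasn (-2.79 and -3.54) were among the lower ones, and Lpin1 (0.07 in KO, 2.10 in WT) among the higher ones in WT liver. Thyroid hormone receptor targets gave 1 of 12 lower and 0 higher for KO over WT in each state, Pck1, the gluconeogenic enzyme (-1.13), when fasted and Cyp7a1 when fed. With fasting 0 of 12 were higher and 3 lower in KO liver, and 1 higher (Pck1, 2.01) and 3 lower in WT liver, and Thrsp had the largest ratio in size (-4.80 in KO, -5.30 in WT). Of 10 retinoic acid receptor targets 0 passed 2-fold between genotypes in either state. In WT liver fasting gave 1 higher (Cyp26b1, 1.35) and 1 lower (Cyp26a1, -1.98), both retinoic acid hydroxylases. In KO liver 0 of 9 measured passed 2-fold, with Cyp26b1 at 0.88. Cyp26a1 was not well above background in fasted KO liver (6.02, against 8.05 in fed KO liver), which puts it at least 4.01-fold lower there with fasting. HNF4-alpha targets had 0 higher and 2 lower of 26 in fasted KO liver, Apoa4 (-4.31) and Pck1. The difference of the genotype ratios was below 0 for 21 of 26 HNF4-alpha targets, with a median of -0.13. Over all genes that difference was below 0 for 5779 of 11290, with a median of -0.01. Under all-spot centring the median of all genes there was -0.17, so these signs rest on the scaling too. In the fed state 1 HNF4-alpha target was higher, Apoa4 (1.68). The NR5A2 list gave 0 of 9 past 2-fold in the fasted and 1 of 9 in the fed genotype comparison, the ERR-alpha list 1 (Pdk4) and 0 of 16, and the vitamin D receptor list 0 of 4 in each. The ROR list gave 2 of 12 higher in fasted KO liver (Sult1e1 and Cyp4a14, the second at 1.36) and, when fed, 1 higher (Cyp7b1, an oxysterol hydroxylase, 1.1) and 1 lower (Cyp4a14). The NR4A list gave 1 of 6 lower when fasted (Pck1) and 0 of 6 past 2-fold when fed, beside the Nr4a1 ratio of -1.21. Lists overlap, since Cyp7a1, Pck1, Lpin1 and Cyp4a14 sit on more than 1 of them, and Nr1i3 and Ppara are themselves on the HNF4-alpha list.

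The RefSeq promoter table held the window of 29 of 31 members, not of Thra and Hnf4g. The windows, 250 bases before the start, were searched on both strands for 6 motifs chosen after the values were seen. The full cAMP response element, TGACGTCA, was in 0 of the members' 45 windows and in 1.55% of 32851 windows of all genes, and its part TGACG in 9 of the members' 45 windows (20%) and in 17.8% of all windows. CCACG was in 19 of 45 (42.2%), against 28.3% of all windows. The E-box CACGTG was in 3 of 45 (6.67%), those of Rara, Thrb and Nr1i3, against 6.02%, and the nuclear receptor half-site AGGTCA in 8 of 45 (17.8%), against 14.0%. The DR1, a direct repeat of that half-site with 1 base between, was in 0 of 45 and in 0.0335% of all windows. TGACG and TGACGTCA overlap where both occur, several members have more than 1 start site, and a match is only a run of letters.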

How the data were processed

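Liver RNA of 4 pools was measured on 2 two-colour Agilent arrays, and 31 nuclear receptor genes were taken as listed. The deposited scanner files came from Agilent Feature Extraction 10.10.1.1 per the file headers. Spot and background intensity values were deposited without normalization, as medians over pixels. The deposited processed intensity values are background-subtracted and dye-normalized, per the file headers. Each spot's deposited log10 ratio is Cy5 over Cy3, that is KO over WT by the labels. The deposited p-value of a spot comes from that software's error model, does not rest on replicates and was not used. A deposited value table holds the same ratios as log2, with differences of at most 0.005 from the log10 values turned to log2, with column medians of 0.00. These differences leave no room for a further centring of the table by more than 0.005.

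Signals were background-corrected with normexp (offset 50), normalized by loess within arrays with control spots at weight 0, and by Aquantile between arrays, in limma 3.58.1 under R 4.3.3, which was tested on simulated data. This offset shrinks the ratios of dim probes. Outlier spots (197 fasted, 216 fed) were left out, no gene spot was saturated, and spots of a probe were averaged. A probe was measured where at least 50% of its spots were well above background, which 45.8% of 59305 gene spots were in the fasted KO, 45.9% in the fasted WT, 42.9% in the fed KO and 39.9% in the fed WT channel. The bound ("at least") for Cyp26a1 set the bright channel against the larger of 2 values in the dim one, the probe's signal and the lowest signal among probes well above background. The probe of highest mean intensity stood for a gene. Accessions were named through the RefSeq table of GRCm38.p6. The array grid names mm9, so gene coordinates were not used, and promoter windows are those of RefSeq. No test was run on 1 pool per group, and the number of arrays limits the precision. The members and lists were chosen with earlier results of these data known. Named were all members, Creb3l3, up to 3 genes per list and comparison with the largest ratios past 2-fold, and the defining cell markers. Settings tried were the processed signals, an offset of 16, 2 other centrings, no filter on dim probes, the mean over probes, 1.5-fold, the authors' value table, no normalization between arrays and quantile normalization.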

Additional observations from a re-analysis of the deposited data

How the results depend on the processing

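For KO over WT, all-spot centring moved the members' medians most. It gave 6 members past 2-fold (6 higher, 0 lower) and a median of 0.84 for KO over WT fed, where all genes gave 3102 higher and 9 lower, a median of 0.52 for KO over WT fasted, medians of -0.17 (KO) and 0.07 (WT) for fasted over fed, and 2 members (0 higher, 2 lower, Ppara and Pparg) with a median of -0.26 for the difference of the ratios, where the medians of all genes moved too. Centring on spots well above background left 1 member past 2-fold when fed (Nr4a1) and gave medians of 0.02 (fasted) and 0.14 (fed) for KO over WT. The processed signals gave 1 member for KO over WT fasted (Esr1) and a median of -0.15 for fasted over fed in KO liver. The authors' value table gave 1 member for KO over WT fasted too. It holds the scanner software's own ratios, so it is no separate check, though it is counted among the settings. An offset of 16 gave 4 members for fasted over fed in KO liver (2 higher, 2 lower). At 1.5-fold the counts were 3 for KO over WT fasted and 5 for each of fasted over fed in KO, in WT and the difference. Without normalization between arrays the median of all genes moved by 0.44 (KO) and 0.46 (WT) for fasted over fed, the members' medians were 0.43 and 0.50, and 5 members (5 higher, 0 lower) passed 2-fold in WT liver. The cause of these changes was not tested beyond the moved medians. No value past 2-fold as reported changed sign. Of 811 values of single genes under the alternatives 480 moved by less than the technical spread and 331 by more. Counts for KO over WT past 2-fold over all genes were 97 fasted and 63 fed, and 193 and 174 on the processed signals. No paired analysis was possible because each group is 1 pool. Precision is limited by 1 pool per group, by the dye that goes with genotype and the array that goes with feeding state, and by signal over background for Esr1, Nr3c2, Nr2f1, Nr4a2 and Nr6a1.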
